A study of Xenopus laevis with 79 samples.

Results

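Fibroblast growth factor (FGF) pathway genes and their feedback inhibitors were described across the ectoderm of Xenopus laevis embryos. The set was taken by locus name from the count table: names of FGF ligands, FGF receptors, Sprouty and Spred inhibitors, dual-specificity phosphatases, ETV factors, il17rd, FLRT proteins and the FRS adaptors. Of the 95 names that matched, 72 passed a minimum (over 10 counts in 2 or more libraries) and were kept as members, among 25172 loci of 45099 that met the same minimum. The other 23 were not counted further. The 72 members comprised 14 of 25 secreted ligands, 2 of 4 intracellular FGF homologs, all 6 receptor loci (fgfr1, fgfr2 and fgfr4, each as an L and an S copy), both copies of the decoy receptor fgfrl1, 4 of 4 FRS loci, 5 of 6 FLRT loci, 7 of 8 Sprouty loci, 6 of 6 Spred loci, 15 of 18 phosphatases of MAP kinases and 10 of 14 atypical dual-specificity phosphatases. The last member, fgfr1op.l, a centrosomal gene, matched the receptor names without being a receptor. No locus named fgfr3, etv1, etv5 or il17rd matched, and etv4.s was below the minimum.

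FGF ligands bind receptor tyrosine kinases on the cell surface, which signal through FRS adaptors to the Ras and ERK cascade. The cascade switches on its own brakes, among them the Sprouty and Spred proteins and the ERK phosphatase dusp6, so these inhibitors are widely used as readouts of FGF signalling. In the frog gastrula and neurula, FGF signals take part in mesoderm formation, in neural induction, in posterior patterning of the neural plate and in induction of the neural crest.

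The embryos were all wild type. Each dissected library held one piece of ectoderm from a single embryo, peeled from the underlying mesoderm. At St. 12.5 (end of gastrulation) the pieces were the anterior and posterior neural plate (NPa, 3 libraries, and NPp, 3), the anterior, posterior and lateral neural border (NBa, 4, NBp, 3, and NBl, 3), the preplacodal ectoderm taken with the anterior neural border (ANB/PPE, 3) and the nonneural ectoderm (NNE, 3). At St. 14 (neurula) they were NPa (3), NPp (4), NBa (6), NBp (5), the preplacodal ectoderm with the anterior neural fold (ANF/PPE, 5), anterior and posterior NNE (NNEa, 3, and NNEp, 3), and the plate and border left undivided (NP, 2, and NB, 4). At St. 17 they were the neural crest (NC, 4) and the placode (Pc, 2). Whole embryos were sequenced in 2 libraries at each of 8 stages from St. 11-11.5 to St. 18-19. The 79 libraries held 8898486 to 18468048 counts each. Levels are CPM, library-size-scaled counts, after scaling by trimmed mean of M values. They are not corrected for gene length, so levels were compared between samples and never between genes. Each library was one piece, so a lower level can come from fewer cells of a type or from less RNA per cell, which cannot be told apart here.

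Some posterior pieces carried transcripts of other tissues. The 20 mesoderm marker loci summed to 1.24 to 2.79 CPM in NPa and 31.1 to 690.5 CPM in NPp at St. 12.5, where 20 of 20 and 2 of 20 of them averaged below 1 CPM. The same sum was 4.62 to 7.06 CPM in NBa and 199 to 829.6 CPM in NBp at St. 12.5. At St. 14 it was 18.0 to 38.6 CPM in NPa, 61.6 to 199 CPM in NPp, 5.47 to 21.1 CPM in NBa and 51.6 to 184 CPM in NBp. The 8 notochord loci summed to 54.3 to 841 CPM in NPa and 1143 to 3706 CPM in NPp at St. 12.5. Mesoderm itself expresses FGF ligands and Sprouty genes, and the part of these transcripts in the posterior values below was not tested. Each anteroposterior comparison was therefore also made without the library highest in mesoderm markers of each posterior region. The posterior libraries that remained still carried these markers, at St. 12.5 at least 31.1 CPM in NPp and 199 CPM in NBp. A call kept in that fit therefore does not show that the markers' tissue had no part in it. The library labelled St. 14 NBp 2 stood apart from the other 4 NBp libraries. It had 7.54 CPM of the plate marker sox2.1 against 90.1 to 179.9 CPM in the others, and 1289 CPM of summed crest markers against 103 to 684 CPM. Where leaving it out ended a call of NBp against NBa, of border against plate or of the stage difference in the plate and border, the value without it is given.

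The first question was how the pathway differed along the anteroposterior axis of the plate and border. In the plate and the border, at both stages, the genes that rose posteriorly included FGF ligands, Sprouty inhibitors and spred1.l, and the receptor gene fgfr4 was lower posteriorly in the plate at both stages and in the border at St. 12.5. At St. 12.5, 62 of the 72 members reached the count minimum in the libraries compared and were tested. A member that passed only through the region where it was high had to differ, so the shares over tested members are descriptions. In NPp against NPa, 13 were higher and 2 lower at an adjusted p under 0.05 (edgeR's quasi-likelihood test with Benjamini-Hochberg adjustment over all loci, here and throughout). Of all loci tested, 3.72% were called there, 2.97% higher and 0.749% lower. In NBp against NBa, 12 were higher and 2 lower, with 2.92% of all loci called, 2.27% higher and 0.644% lower. At St. 14, 63 members were tested. In NPp against NPa 11 were higher and 3 lower, with 2.17% of all loci called, 1.02% higher and 1.16% lower. In NBp against NBa 9 were higher and none lower, with 1.61% of all loci called, 1.37% higher and 0.239% lower. Any difference among the 7 regions was called for 36 of 62 members at St. 12.5, with 38.3% of all loci called, and for 50 of 63 at St. 14, with 54.9% called. The median member differed by 0.30 (plate) and 0.42 (border) on the log2 scale at St. 12.5, against 0.04 and -0.06 over all loci, and by 0.23 and 0.03 at St. 14, against 0.00 and -0.00.

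**Figure D1:**
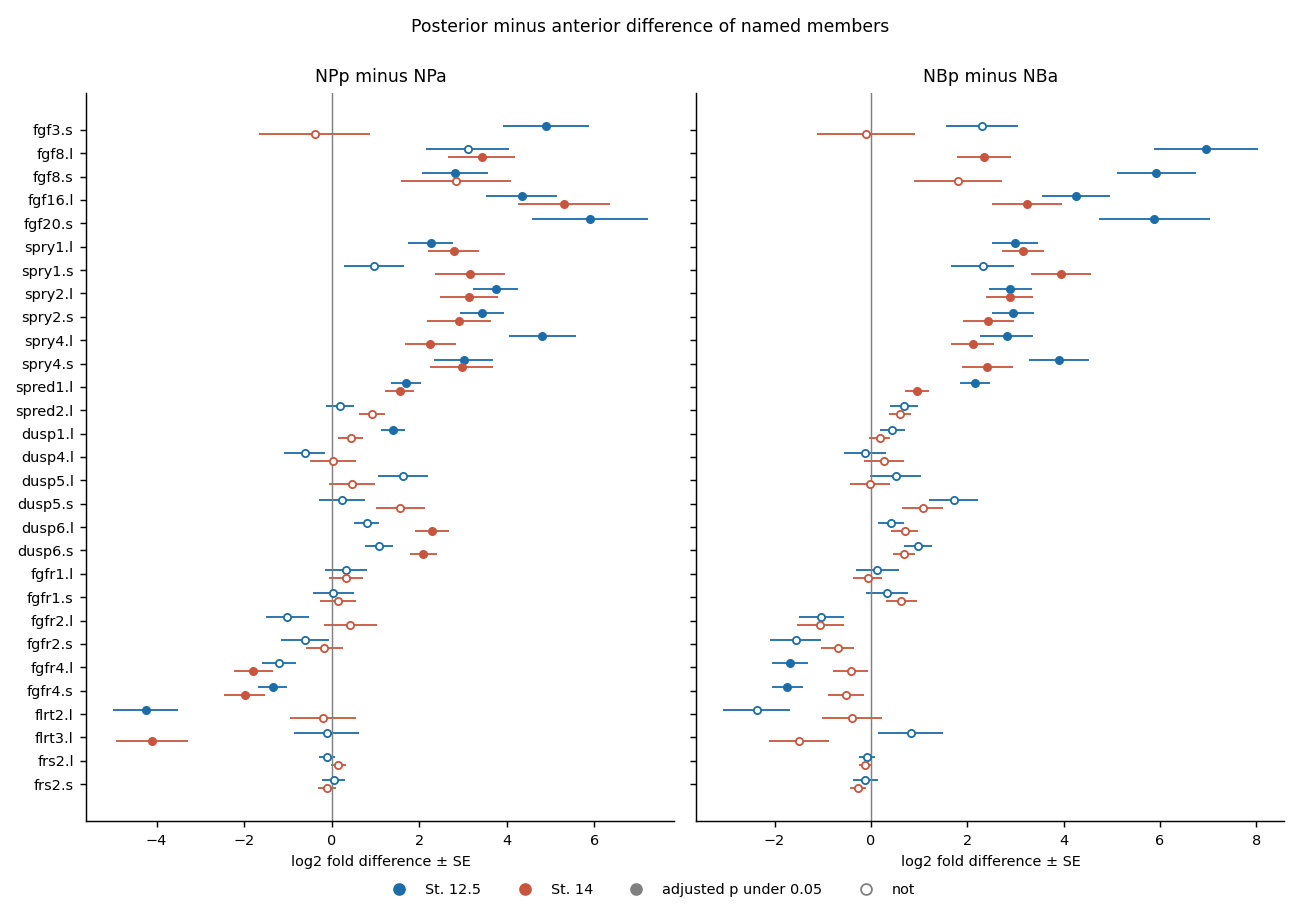
Log2 difference of posterior minus anterior pieces, with its standard error, for 29 named members in the neural plate (NPp minus NPa) and the neural border (NBp minus NBa) at St. 12.5 and St. 14. Filled symbols mark an adjusted p under 0.05. Sprouty loci, fgf16.l and fgf8 lie to the posterior side in each comparison, whereas fgfr4 lies to the anterior side.

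Among the ligands, fgf8, a ligand of the posterior neural plate and of the anterior neural ridge, was called higher posteriorly in all 4 comparisons through one copy or both. In the border at St. 12.5, fgf8.l stood at 1.004, 0.0807, 0.480 and 0.0941 CPM in the 4 NBa libraries and at 28.6, 48.7 and 77.9 CPM in the 3 NBp libraries. The groups were far apart, and the log2 difference of 6.95 ± 1.08 (SE) had an adjusted p of 0.000641. The S copy, fgf8.s, rose by 5.92 ± 0.82 there (adjusted p = 0.000201). In the plate at St. 12.5, fgf8.l was 1.44, 0.773 and 12.401 CPM in NPa and 25.2, 61.3 and 37.8 CPM in NPp. These groups did not overlap either, but one NPa library lay well above its partners and the difference of 3.10 ± 0.95 missed the threshold (adjusted p = 0.0806). At St. 14, fgf8.l was 4.31, 3.88 and 0.746 CPM in NPa and 25.6, 14.9, 22.9 and 64.1 CPM in NPp, a difference of 3.43 ± 0.76 (adjusted p = 0.0151). All 4 NPp libraries were above all NPa libraries. With the embryo as a block the adjusted p was 0.0733, and without NPp 4, the highest in mesoderm markers, it was 0.0633 for a difference of 2.84. In the St. 14 border fgf8.l rose by 2.35 ± 0.55 (adjusted p = 0.0223, and 0.0823 without the NBp library highest in mesoderm markers), and without NBp 2 by 2.51 (adjusted p = 0.0105). The S copy rose by 2.81 ± 0.75 in the St. 12.5 plate (adjusted p = 0.0387), and at St. 14 it was called neither in the plate (2.83 ± 1.26, adjusted p = 0.317) nor in the border (1.81 ± 0.92, adjusted p = 0.523).

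The gene fgf16, whose ligand belongs to the fgf9 and fgf20 subfamily, showed the same posterior excess through its L copy. At St. 12.5, fgf16.l was 0.412, 2.40 and 1.09 CPM in NPa and 6.803, 55.7 and 15.7 CPM in NPp. Every posterior library was above every anterior one, with a difference of 4.34 ± 0.81 (adjusted p = 0.00336). In the border it was 0.602, 1.45, 4.94 and 2.17 CPM in NBa and 25.2, 46.1 and 63.3 CPM in NBp, a rise of 4.26 ± 0.70 (adjusted p = 0.0011). At St. 14 it was 0.520, 0.243 and 0.136 CPM in NPa and 7.98, 5.71, 5.31 and 29.2 CPM in NPp. The difference of 5.30 ± 1.05 was called (adjusted p = 0.0073), though with the embryo as a block the adjusted p was 0.0600. The related fgf20.s had group means of 0.0686 CPM in NPa and 3.86 CPM in NPp at St. 12.5, and of 0.0514 CPM in NBa and 4.17 CPM in NBp. The anterior means rest on 2 counts over all NPa libraries and 3 over all NBa libraries, so no fold is given. Both differences were called (adjusted p of 0.0131 and 0.00575), the border one not without the posterior libraries highest in mesoderm markers (adjusted p = 0.0676) and the plate one not without NPa 2 or NPa 3 (adjusted p up to 0.0858). At St. 12.5 fgf20.s met the count minimum only through NPp, NBp and NBl, so these calls are descriptions.

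fgf3, a ligand known from hindbrain and inner ear development, was called posterior in the plate at St. 12.5 and not at St. 14. At St. 12.5, fgf3.s was 0.206, 0.0773 and 1.91 CPM in NPa and 29.2, 25.2 and 12.8 CPM in NPp. The lowest NPp library was above the highest NPa library, and the difference of 4.88 ± 0.98 was called (adjusted p = 0.00568). At St. 14 the NPa libraries ranged widely, at 13.7, 60.5 and 1.22 CPM, and the NPp libraries, at 11.3, 14.0, 18.3 and 33.2 CPM, lay inside that range. The St. 14 difference was -0.38 (adjusted p = 0.968). The first 2 of those NPa libraries came from the same embryo. The change of the NPp to NPa difference from St. 12.5 to St. 14 was -5.25 ± 1.79 for fgf3.s (adjusted p = 0.271). This change was called by edgeR for none of the 70 members tested in the joint fit, with 0.343% of all loci called, 0.0752% higher and 0.267% lower; 15 members had an unadjusted p under 0.05 there, and DESeq2 called 2.

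**Figure D2:**
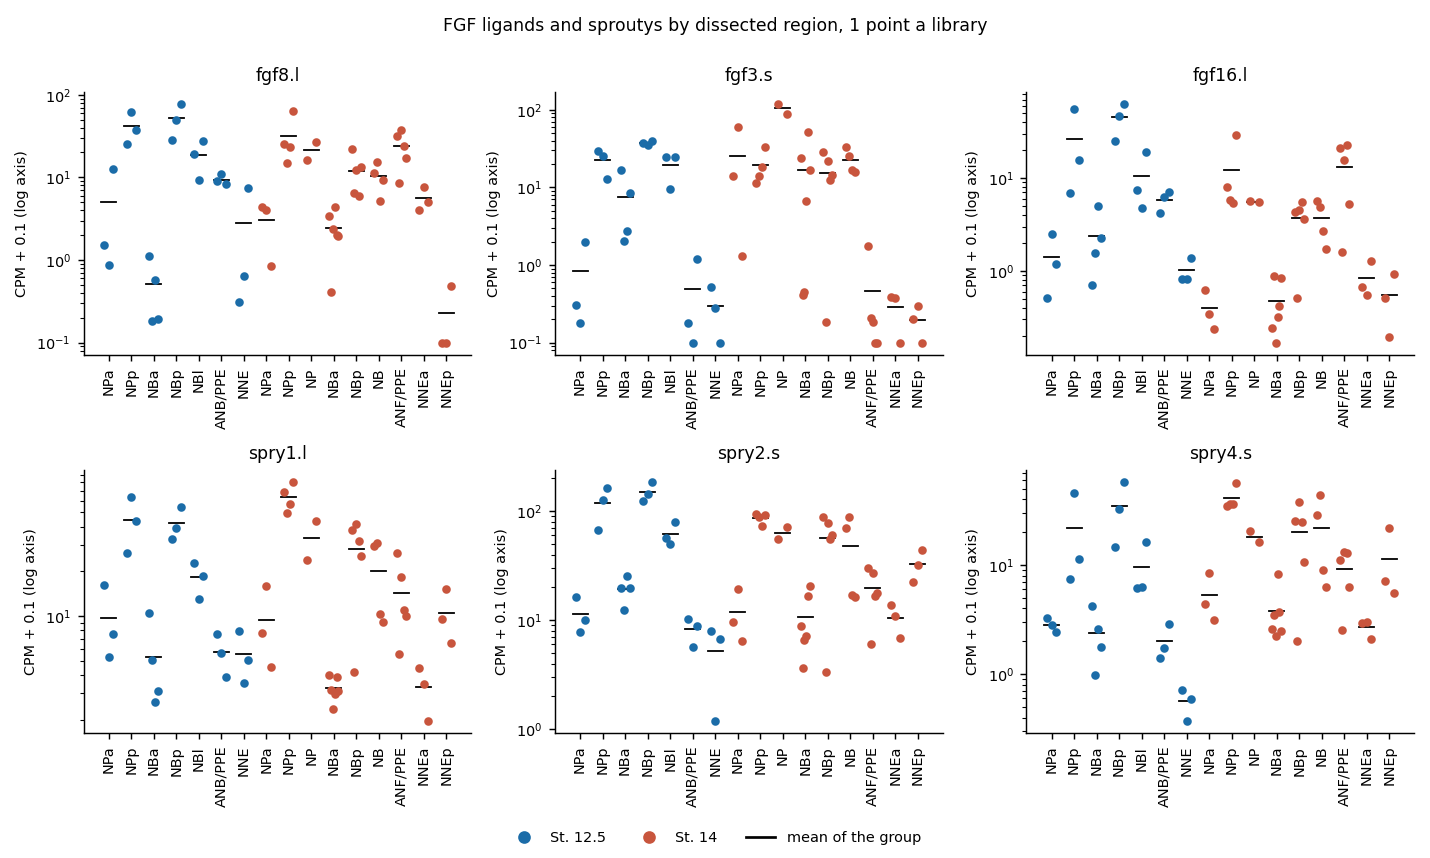
Level in CPM (with 0.1 added, log axis) of fgf8.l, fgf3.s, fgf16.l, spry1.l, spry2.s and spry4.s, by stage (St. 12.5, then St. 14) and region. Points are libraries and black lines are group means. Posterior plate and border libraries sit above the anterior ones for fgf8.l, fgf16.l and the Sprouty loci, with St. 14 NBp 2 among the anterior values for spry2.s and spry4.s.

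Sprouty proteins are intracellular antagonists of receptor tyrosine kinase signalling that are induced by FGF. Of the 7 Sprouty loci tested at St. 12.5, 5 were higher in NPp and 5 in NBp, and of the 6 tested at St. 14, 6 were higher in NPp and 6 in NBp. At St. 12.5, spry2.l was 6.59, 3.17 and 6.95 CPM in NPa and 26.7, 80.1 and 112 CPM in NPp. The groups did not overlap, and the difference of 3.74 ± 0.52 had an adjusted p of 0.0002. Its S copy was 16.1, 7.65 and 10.0 CPM in NPa and 66.4, 127 and 163 CPM in NPp, a rise of 3.44 ± 0.51 (adjusted p = 0.000403). In the border spry2.l rose by 2.89 ± 0.44, spry2.s by 2.95 ± 0.44 and spry1.l by 2.99 ± 0.48 (adjusted p of 0.000539, 0.000465 and 0.000783). These 3 border calls and both spry2 plate calls held in each of the 22 fits that left out 1 library. spry4.s was 4.12, 0.887, 2.47 and 1.69 CPM in NBa and 14.5, 32.6 and 57.1 CPM in NBp, and rose by 3.91 ± 0.62 (adjusted p = 0.000706). The spry1.s copy missed the threshold at St. 12.5, at 0.96 (adjusted p = 0.580) in the plate and 2.33 ± 0.65 (adjusted p = 0.0622) in the border.

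At St. 14 the Sprouty difference was carried by both copies of spry1, spry2 and spry4. spry1.l was 7.58, 15.9 and 4.41 CPM in NPa and 68.6, 49.5, 56.6 and 79.8 CPM in NPp. All 4 posterior libraries were above all anterior ones, and the difference was 2.78 ± 0.58 (adjusted p = 0.00946). In the border spry1.l ranged from 2.27 to 3.90 CPM around a median of 3.03 CPM in the 6 NBa libraries, and was 37.9, 4.06, 41.5, 31.9 and 25.3 CPM in NBp 1 to 5. Only NBp 2 came near the anterior values. The difference was 3.15 ± 0.44 (adjusted p = 0.000187) with NBp 2 and 3.44 (adjusted p = 1.16e-06) without it. For spry1.s the NBa libraries were 0.313 to 3.12 CPM (median 1.88 CPM) and NBp 1 to 5 were 49.1, 0.995, 35.3, 18.0 and 31.5 CPM, so that NBp 2 lay inside the anterior range. All 9 members called in the St. 14 border remained called without NBp 2, when 13 were called in all. Under limma-voom 2 members were called in that comparison, and 5 with the label prefix as a covariate. The prefix, whose meaning is not given in the sources used here, was B100 in 3 of 5 NBp and 1 of 6 NBa libraries.

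The St. 14 anteroposterior calls depended on how the embryo of origin was treated. With the embryo as a block, 4 of the 14 plate calls remained, those of dusp6.l, dusp6.s, flrt3.l and spred1.l. The Sprouty differences kept their sign there, with adjusted p of 0.0518 to 0.135, for instance 2.95 for spry1.l (adjusted p = 0.0520). In the border the block left 0 of 63 members and 0 of 22143 loci called by edgeR, with 9 members at an unadjusted p under 0.05, and spry1.l differed by 3.001 (adjusted p = 0.553). NBa and NBp libraries that share a numbered embryo were few in that fit, those of embryos 10 and 13, and NBp 2 came from embryo 10. Without the St. 14 libraries highest in mesoderm markers (NPp 4 and NBp 1), 7 members were called in the plate and 6 in the border. The lost Sprouty calls in the plate were spry1.s (adjusted p = 0.0986), spry2.s (0.0749), spry4.l (0.107) and spry4.s (0.0846), and in the border spry2.s (0.0579). Leaving out NPa 1 or NPa 3 left 5 plate members called, and leaving out NPp 4 left 6. Apart from the blocked border fit, counts of members called under alternative fits stand without the share of all loci called, here and elsewhere. They do not show whether a loss was particular to the members.

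Other inhibitors moved with the Sprouty genes in part. spred1.l, a membrane-bound inhibitor of Ras to Raf signalling, was 17.3, 12.1 and 18.7 CPM in NPa and 48.8, 58.6 and 44.2 CPM in NPp at St. 12.5. The posterior libraries were all higher, by 1.70 ± 0.34 (adjusted p = 0.00562, and 0.0534 without NPa 2). It rose by 2.16 ± 0.32 in the St. 12.5 border, 1.55 ± 0.32 in the St. 14 plate and 0.95 ± 0.25 in the St. 14 border (adjusted p of 0.000349, 0.00984 and 0.0452). The weakest of these, in the St. 14 border, was kept in 12 of 29 fits that left out 1 library. No other Spred locus was called in the 4 comparisons. Without the libraries highest in mesoderm markers the adjusted p at St. 14 was 0.0633 in the plate and 0.0576 in the border.

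dusp6, the cytoplasmic phosphatase of ERK, differed along the plate at St. 14. dusp6.s was 23.2, 15.3 and 14.9 CPM in NPa and 83.1, 85.8, 70.3 and 60.3 CPM in NPp, and dusp6.l was 17.2, 15.1 and 17.9 CPM in NPa and 78.5, 101, 78.4 and 65.99 CPM in NPp. Posterior libraries were all above anterior ones for both copies. The differences were 2.09 ± 0.31 and 2.29 ± 0.38 (adjusted p of 0.00154 and 0.0031), and both held in all 29 fits that left out 1 library and with the embryo as a block. At St. 12.5 dusp6.s was 41.6, 24.0 and 30.2 CPM in NPa and 64.0, 75.4 and 57.8 CPM in NPp, and its difference of 1.08 ± 0.31 was not called (adjusted p = 0.0604). The change of the dusp6.l difference between stages was 1.501 ± 0.46, also not called (adjusted p = 0.188). dusp1.l, a nuclear phosphatase of MAP kinases, rose by 1.40 ± 0.28 in NPp at St. 12.5 (adjusted p = 0.00505), from 115, 75.8 and 85.4 CPM to 145.5, 214 and 350.0 CPM. Of the 9 atypical phosphatases tested, which include enzymes with substrates other than MAP kinases, none was called in any of the 4 anteroposterior comparisons.

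Among the receptors, fgfr4, one linked in Xenopus to anterior neural development, was lower posteriorly in 3 of the 4 comparisons, through both copies in 2 of them and through fgfr4.s alone in the St. 12.5 plate. At St. 12.5, fgfr4.s was 338, 288, 254 and 185 CPM in NBa and 95.1, 93.9 and 57.1 CPM in NBp, and fgfr4.l was 417, 409, 263 and 299.7 CPM in NBa and 159, 96.6 and 76.8 CPM in NBp. No posterior library reached the lowest anterior one for either copy. The log2 differences were -1.73 ± 0.32 and -1.68 ± 0.37 (adjusted p of 0.00305 and 0.0123). The fgfr4.l call was lost without NBp 2 or without NBp 3 (adjusted p up to 0.0997) and without the NBl, NPp and NBp libraries highest in mesoderm markers (adjusted p = 0.0950). In the plate fgfr4.s was 253, 241 and 172 CPM in NPa and 100.1, 108.1 and 45.2 CPM in NPp, a difference of -1.35 ± 0.33 (adjusted p = 0.0235, up to 0.106 without NPa 1, NPa 2 or NPp 3). fgfr4.l differed by -1.20 ± 0.38 there and was not called (adjusted p = 0.0980). At St. 14, fgfr4.l was 307, 181 and 312 CPM in NPa and 70.8, 70.6, 136 and 27.9 CPM in NPp. It fell by 1.79 ± 0.45 and fgfr4.s by 1.99 ± 0.47 (adjusted p of 0.0318 and 0.0232), and neither was called with the embryo as a block (adjusted p of 0.0807 and 0.0836). Leaving out NPa 1, NPa 3, NPp 1, NPp 2 or NPp 4 also ended both calls (adjusted p up to 0.120). In the St. 14 border fgfr4.l differed by -0.42 and fgfr4.s by -0.51 (adjusted p of 0.796 and 0.748). Receptor genes fgfr1 and fgfr2 were not called along either axis piece, and St. 12.5 NPp 3 was low in both: fgfr1.l was 24.6 CPM there and 127 and 140.1 CPM in the other NPp libraries, and fgfr2.s was 4.30 CPM against 28.6 and 26.6 CPM. NPp 3 is the only St. 12.5 library with the label prefix B100.

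FLRT proteins are transmembrane leucine-rich repeat proteins, of which FLRT3 promotes FGF signalling in Xenopus. flrt2.l was lower posteriorly at St. 12.5, at 1.96, 6.34 and 2.32 CPM in NPa and 0.119, 0.349 and 0 CPM in NPp. The difference was -4.25 ± 0.75 (adjusted p = 0.00165), at low levels throughout. The S copy, flrt2.s, did not follow it, at 0.51 ± 0.89 (adjusted p = 0.838). flrt3.l was lower posteriorly at St. 14, at 31.4, 98.2 and 45.9 CPM in NPa and 4.76, 4.23, 1.52 and 2.85 CPM in NPp. The groups were well separated and the difference of -4.11 ± 0.82 (adjusted p = 0.00854) held in all 29 fits that left out 1 library. At St. 14 flrt3.l made up a mean of 73.3% of the counts of both flrt3 copies in NPa and 32.9% in NPp. The fall was thus larger for flrt3.l than for flrt3.s. At St. 12.5 flrt3.l overlapped between the regions, at 12.0, 10.6 and 10.9 CPM in NPa and 10.5, 17.7 and 1.63 CPM in NPp. The change between stages was -3.98 ± 1.10 for flrt3.l and 4.09 ± 1.13 for flrt2.l, not called (adjusted p of 0.107 and 0.0960). The 8 crest marker loci summed to 462 to 979 CPM in St. 14 NPa and 12.8 to 61.8 CPM in NPp. The part of crest or border tissue in the flrt3.l difference was not tested. The same holds for the other St. 14 values of NPp against NPa above, those of fgfr4 and fgf3.s among them. It also holds for the St. 14 plate mean below, which includes NPa.

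The second question was how the plate differed from the nonneural ectoderm. At St. 12.5 the plate (mean of NPa and NPp) was higher than NNE for 18 members and lower for 8, with 39.7% of all loci called, 16.4% higher and 23.3% lower, so the share of members called (26 of 62) was near that of all loci. At St. 14, 25 were higher and 6 lower of 63, with 46.5% of all loci called, 23.2% higher and 23.3% lower. The St. 14 NPa libraries in that mean carried crest markers, whose part in these values was not tested. Of the secreted ligands 3 of 9 tested were higher in the plate at St. 12.5 and 6 of 9 at St. 14, and of the Sprouty loci 5 of 7 and 4 of 6, with none lower in either group. Those not called included fgf8.l at St. 12.5 (2.25, adjusted p = 0.0509), fgf16.l at St. 14 (1.70, adjusted p = 0.0523), spry2.s at St. 14 (0.81, adjusted p = 0.179) and spry4.l at both stages (-1.08 and -0.73, adjusted p of 0.134 and 0.138). At St. 12.5 spry2.l was 1.35, 0.452 and 1.29 CPM in NNE and 4.14 ± 0.55 higher in the plate on the log2 scale (adjusted p = 3.33e-06), and spred1.l was 2.85 ± 0.35 higher (adjusted p = 1.15e-06). fgf8.s was 4.76 ± 0.94 higher (adjusted p = 0.000353) and fgf3.s 4.21 ± 1.16 higher (adjusted p = 0.00565, and 0.110 without NPa 3). These fgf8.s and fgf3.s differences rest on 7 and 6 counts over all NNE libraries, so their sizes are uncertain. At St. 14 fgf3.s was 0 to 0.284 CPM in the 6 NNE libraries, on 9 counts in all. The plate was higher by 7.34 ± 1.45 (adjusted p = 0.000171), a size that is uncertain for the same reason. fgf8.l was 3.98, 7.54 and 4.95 CPM in NNEa and 0, 0 and 0.378 CPM in NNEp, so that within NNE its level was anterior, and the plate was higher by 3.41 ± 0.63 (adjusted p = 7.68e-05).

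The receptors split between plate and nonneural ectoderm. fgfr1, a receptor used widely in early neural development, was higher in the plate through both copies at St. 14 and through fgfr1.s at St. 12.5. At St. 14 fgfr1.l was 122.9, 122 and 134 CPM in NPa and 137, 147, 212 and 134 CPM in NPp, against 37.8, 74.1 and 60.2 CPM in NNEa and 25.9, 26.3 and 8.70 CPM in NNEp. All plate libraries were above all NNE libraries, by 2.06 ± 0.30 on the log2 scale (adjusted p = 5.33e-06), and fgfr1.s was higher by 1.91 ± 0.32 (adjusted p = 2.61e-05). At St. 12.5 fgfr1.s was higher by 2.33 ± 0.46 (adjusted p = 0.000376), and fgfr1.l, at 0.88 ± 0.43, was not called (adjusted p = 0.111). fgfr2.s was lower in the plate at both stages, by -1.4999 ± 0.45 and -0.89 ± 0.31 (adjusted p of 0.0105 and 0.0220, the latter 0.0550 without St. 14 NPa 2). The L copy, fgfr2.l, was called at neither stage and changed sign between them. It differed by -0.69 ± 0.41 at St. 12.5 and 0.62 ± 0.44 at St. 14 (adjusted p of 0.196 and 0.266). fgfr4.l was 393, 506 and 383 CPM in St. 12.5 NNE, above every plate library, and the plate was lower by -2.18 ± 0.31 (adjusted p = 1.07e-05), whereas fgfr4.s differed by -0.43 ± 0.28 and was not called (adjusted p = 0.235). At St. 14 fgfr4.l was 337, 551 and 590.2 CPM in NNEa and 109.6, 32.3 and 40.4 CPM in NNEp. The NNEa libraries were above all plate libraries and the NNEp libraries lay within the NPp range, and the mean difference of -0.27 was not called (adjusted p = 0.541).

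**Figure D3:**
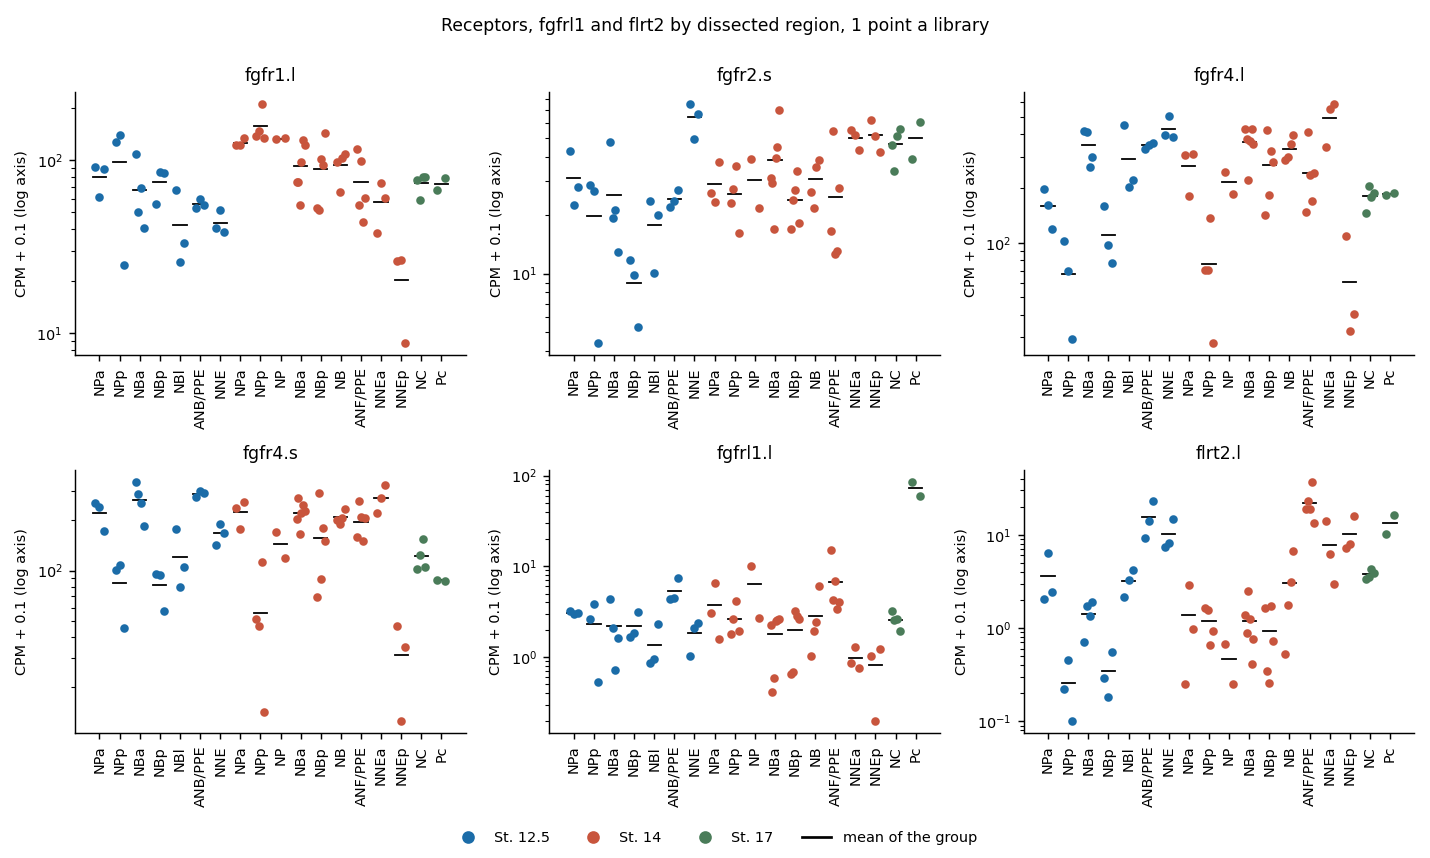
Level in CPM (with 0.1 added, log axis) of fgfr1.l, fgfr2.s, fgfr4.l, fgfr4.s, fgfrl1.l and flrt2.l by region, for the St. 12.5, St. 14 and lastly St. 17 pieces. Points are libraries and black lines are group means. fgfr4.l is high in anterior and nonneural regions and low in NPp and St. 14 NNEp, and fgfrl1.l is highest in the 2 placode libraries.

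Among phosphatases and adaptors, dusp1.s was 53.4, 46.6 and 64.3 CPM in NPa and 123.6, 117 and 142 CPM in NPp at St. 12.5, against 15.2, 7.51 and 5.95 CPM in NNE. All plate libraries were above NNE, and the plate was higher by 2.99 ± 0.37 (adjusted p = 1.29e-06). The L copy, dusp1.l, was not called there, at 0.017 ± 0.24 (adjusted p = 0.967). dusp4.l, a nuclear ERK phosphatase, was lower in the plate at St. 12.5, by -2.32 ± 0.37 (adjusted p = 3.85e-05), with 26.6, 30.5 and 33.7 CPM in NNE. Its S copy, dusp4.s, was not called there (-0.38, adjusted p = 0.635). At St. 14 dusp4.s was higher in the plate by 1.07 ± 0.40 (adjusted p = 0.0285), and dusp4.l was not called (-0.31, adjusted p = 0.540). flrt2 was lower in the plate through both copies at St. 12.5 (-3.81 ± 0.51 for flrt2.l and -3.58 ± 0.66 for flrt2.s, adjusted p of 3.27e-06 and 0.000173). At St. 14 the adaptor frs2, which links the receptor to Grb2 and Shp2, was modestly higher in the plate, by 0.46 ± 0.12 for frs2.l and 0.71 ± 0.16 for frs2.s (adjusted p of 0.00274 and 0.000569). spred2.l and spred2.s were higher there by 0.77 ± 0.22 and 1.18 ± 0.20 (adjusted p of 0.00482 and 3.26e-05).

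In the border against the plate at St. 12.5, 2 members were higher and none lower, with 4.38% of all loci called, 3.35% higher and 1.03% lower. The share of members called, 3.23%, was near that of all loci. One was spry4.l, higher by 1.79 ± 0.47 (adjusted p = 0.0280), which was not called with the embryo as a block (1.52, adjusted p = 0.0628) and was kept in 15 of 22 fits that left out 1 library. At St. 14, 4 were higher and 10 lower of 63, with 21.6% of all loci called, 11.9% higher and 9.64% lower. The share of members called, 22.2%, was again near that of all loci. The St. 14 plate mean includes the NPa libraries that carried crest markers. The part of crest or border tissue in these St. 14 values was not tested. The higher members included fgfr4.l, by 1.16 ± 0.30 (adjusted p = 0.00765, and 0.0525 with the block), and dusp7.l, a cytoplasmic ERK phosphatase, by 1.65 ± 0.47 (adjusted p = 0.0140, and 0.106 with the block). The lower members included 4 of 6 Spred loci. spred2.l was 61.2, 70.003 and 68.6 CPM in NPa and 121, 113, 131 and 138 CPM in NPp, ranged from 35.7 to 62.1 CPM in NBa (median 39.7 CPM), and was 74.3, 34.7, 82.3, 93.1 and 52.8 CPM in NBp. The border was lower by -0.72 ± 0.18 (adjusted p = 0.00726) although the plate and border libraries overlapped. spry1.l was lower in the border by -1.34 ± 0.33 (adjusted p = 0.00572) and fgfr1.s by -0.86 ± 0.26 (adjusted p = 0.0186). Without NBp 2, 11 of the 14 calls remained, and those of dusp23.l, spred1.s and spred2.s were lost (adjusted p of 0.0656, 0.0528 and 0.0521), which left 2 Spred loci lower.

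The preplacodal ectoderm, the source of the sense organs and cranial ganglia, was set against the adjacent nonneural ectoderm. At St. 12.5, ANB/PPE differed from NNE in 2 higher and 2 lower members of 62, with 8.81% of all loci called, 2.89% higher and 5.92% lower. dusp6.s was 35.6, 22.7 and 17.1 CPM in ANB/PPE and 86.6, 47.6 and 60.7 CPM in NNE, without overlap, and was lower by -1.39 ± 0.32 (adjusted p = 0.00865, up to 0.0688 without ANB/PPE 3 or NNE 1). spry2.l was higher by 1.87 ± 0.57 (adjusted p = 0.0426), a call kept in 14 of 22 fits that left out 1 library. With the embryo as a block, 8 members were called, and without ANB/PPE 3 none was, with 1 called without ANB/PPE 1 or NNE 2.

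At St. 14, ANF/PPE was higher than NNEa for 10 members of 63 and lower for none, with 13.3% of all loci called, 5.1% higher and 8.15% lower. The smallest p among them was that of dusp5.s, a copy of the gene of a nuclear ERK phosphatase. dusp5.s was 37.9, 15.2, 63.0, 57.9 and 50.8 CPM in ANF/PPE and 2.65, 6.36 and 1.70 CPM in NNEa. Even the lowest ANF/PPE library was above NNEa, and the difference of 3.71 ± 0.61 (adjusted p = 0.00041) held in all 29 fits that left out 1 library. The L copy, dusp5.l, was not called, at -0.38 ± 0.50 (adjusted p = 0.690). fgf16.l was 21.2, 1.496, 15.5, 22.6 and 5.16 CPM in ANF/PPE and 0.568, 0.454 and 1.18 CPM in NNEa, higher by 4.18 ± 0.95 (adjusted p = 0.00507). fgf8.l was 31.5, 8.44, 36.9, 24.2 and 17.3 CPM in ANF/PPE, above all 3 NNEa libraries, and was higher by 2.16 ± 0.70 (adjusted p = 0.0401, and 0.0763 with the embryo as a block). That call was lost without any 1 of 7 libraries (adjusted p up to 0.189), ANF/PPE 1, 3 and 4, NNEa 1, 2 and 3, and NPp 1. ANF/PPE 2 was the lowest of its group for fgf16.l, fgf8.l and dusp5.s. spry1.l, spry1.s and spry2.l were higher by 2.21 ± 0.56, 3.90 ± 0.89 and 2.49 ± 0.63 (adjusted p of 0.0110, 0.00527 and 0.0112, the first 0.0507 with the block). The other Sprouty loci tested, spry2.s, spry4.s and spry4.l, were not called (0.96, 1.88 and 0.05, adjusted p of 0.372, 0.0698 and 0.967). Both copies of fgfrl1, the receptor without a kinase domain, were higher, by 2.98 ± 0.81 and 5.72 ± 1.36 (adjusted p of 0.0162 and 0.00602, up to 0.0933 without NNEa 1 or NNEa 3). The fgfrl1.s difference rests on 4 counts over all NNEa libraries (mean 0.110 CPM), so its size is uncertain.

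The third question was what changed with stage. In the mean of NPa, NPp, NBa and NBp, 41 of 70 members differed between St. 14 and St. 12.5, 19 higher and 22 lower, with 68.6% of all loci called, 37.5% higher and 31.1% lower. The share of members was thus below that of all loci. All 41 remained called without St. 14 NBp 2. Each numbered embryo gave pieces of a single stage, and there were 3 such embryos at St. 12.5 and 6 at St. 14. This fit had no embryo term, so its p-values take pieces of one embryo as independent and can be too small. The FRS adaptors moved in opposite directions: frs2.l and frs2.s fell by 0.70 ± 0.08 and 0.50 ± 0.11 on the log2 scale (adjusted p of 3.17e-11 and 7.44e-05), and frs3.s rose by 3.34 ± 0.18 (adjusted p = 2.32e-20). frs3.s was 0.471 to 3.25 CPM in the St. 12.5 libraries and 5.23 to 18.8 CPM in the St. 14 libraries of the divided regions, with no overlap. Ligand fgf16.l fell by 2.38 ± 0.41 (adjusted p = 1.44e-06), and spry2.l and spry1.s fell by 0.97 ± 0.26 and 1.14 ± 0.33 (adjusted p of 0.000908 and 0.00219), while spry4.l rose by 1.54 ± 0.30 (adjusted p = 1.06e-05). The receptor loci fgfr1.l, fgfr2.s and fgfr4.l rose by 0.50 ± 0.20, 0.57 ± 0.23 and 0.56 ± 0.20 (adjusted p of 0.0229, 0.0229 and 0.0119). The fgfr1.l call was lost without St. 12.5 NPp 3 (adjusted p = 0.0518), the only library of its stage with the label prefix B100. The fgfr2.s call was lost without that library or St. 12.5 NBp 3 (adjusted p up to 0.0547). Of the 10 atypical phosphatases, 3 rose and 5 fell, among them dusp18.l, which was 6.63 to 27.4 CPM in the 4 regions at St. 12.5 and 0.938 to 3.30 CPM at St. 14 and fell by 2.44 ± 0.19 (adjusted p = 1.41e-15).

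In the preplacodal region 25 of 70 members differed between St. 14 ANF/PPE and St. 12.5 ANB/PPE, 15 higher and 10 lower, with 27.9% of all loci called, 14.6% higher and 13.4% lower. The pieces carry different names at the 2 stages, so stage and the cut of the piece cannot be told apart. The same fit without an embryo term was used here, and ANF/PPE 2 and ANF/PPE 3 came from one embryo. Sprouty loci rose here: spry2.l was 3.42, 5.37 and 2.62 CPM in ANB/PPE and 18.8, 3.85, 25.3, 17.3 and 16.5 CPM in ANF/PPE, overlapping only through ANF/PPE 2, and rose by 2.11 ± 0.56 (adjusted p = 0.00388). spry4.s rose by 2.27 ± 0.68 (adjusted p = 0.0102, and 0.0557 without ANB/PPE 1). flrt3.s rose by 3.09 ± 0.95 (adjusted p = 0.0127, up to 0.0711 without ANB/PPE 1 or 2). spred1.l rose by 1.07 ± 0.31 and frs3.s by 1.72 ± 0.33 (adjusted p of 0.00759 and 0.000108), and frs2.l fell by 0.62 ± 0.15 (adjusted p = 0.00133). Without ANB/PPE 2 or ANB/PPE 1, the number of members called was 14 or 16.

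At St. 17 the crest and the placode were compared with the St. 14 regions and with each other. The NC and Pc pieces were not the same cuts as St. 14 NBa and ANF/PPE. In both comparisons with St. 14, stage and the cut of the piece therefore cannot be told apart. In NC against St. 14 NBa, 9 of 70 members were higher and 5 lower, with 20.3% of all loci called, 10.7% higher and 9.6% lower. flrt3.l was 128, 141, 141 and 131 CPM in NC and 5.89 to 72.4 CPM in NBa (median 37.5 CPM). Every NC library was above every NBa library, and the difference of 1.65 ± 0.60 was called (adjusted p = 0.0433). That call was lost without NBa 2, 4, 5 or 6 or any 1 NC library (adjusted p up to 0.0964). fgf3.s was 0.0653, 2.16, 0.478 and 1.13 CPM in NC and 0.313 to 51.4 CPM in NBa (median 11.6 CPM), and fell by 4.13 ± 1.18 (adjusted p = 0.0106). The 2 groups overlapped at their lower end. spred1.l and spred2.l rose by 0.90 ± 0.26 and 0.75 ± 0.24 (adjusted p of 0.00986 and 0.0197, and 0.0532 without NC 3 and 0.0753 without NC 4), and dusp6.s fell by 0.89 ± 0.24 (adjusted p = 0.00716).

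In Pc against St. 14 ANF/PPE, 11 members were higher and 4 lower of 70, with 30.7% of all loci called, 19.3% higher and 11.5% lower. fgfrl1.l was 84.4 and 60.1 CPM in Pc and 15.0, 4.17, 6.78, 3.32 and 3.92 CPM in ANF/PPE. Both placode libraries were far above the fold libraries, by 3.39 ± 0.63 (adjusted p = 5.76e-05). fgf16.l, at 0.251 and 0 CPM in Pc on 3 counts in all, was lower by -6.70 ± 1.37 (adjusted p = 0.000157), and dusp5.s, at 7.53 and 7.24 CPM, was lower by -2.65 ± 0.65 (adjusted p = 0.00148). Both dusp6 copies rose, by 0.997 ± 0.33 and 0.97 ± 0.29 (adjusted p of 0.0171 and 0.00928), though neither was called with a single Pc library (adjusted p up to 0.256). Endoderm markers summed to 655 to 675 CPM in Pc, 71.7 to 325 CPM in ANF/PPE and 18.4 to 217 CPM in NC, and mesoderm markers to 168 to 226 CPM in Pc and 8.10 to 25.5 CPM in ANF/PPE. Their part in the placode values was not tested.

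In NC against Pc, 8 of 70 members were lower in NC and none higher, with 13.7% of all loci called, 3.93% higher and 9.74% lower. fgfrl1.l was 3.14, 2.44, 2.53 and 1.82 CPM in NC, below both Pc libraries, with a difference of -4.85 ± 0.71 (adjusted p = 1.23e-05) that held in all 57 fits that left out 1 library. fgfrl1.s was lower by -4.50 ± 1.04 (adjusted p = 0.00289), also in all 57. fgf8.l was 5.29, 3.28, 3.34 and 2.83 CPM in NC and 31.4 and 17.4 CPM in Pc, lower by -2.71 ± 0.82 (adjusted p = 0.0219, up to 0.192 without NC 2, NC 3, NC 4, Pc 1 or Pc 2). spry1.l was 3.92, 4.12, 2.39 and 2.70 CPM in NC and 14.7 and 15.6 CPM in Pc, lower by -2.20 ± 0.55 (adjusted p = 0.00551, and 0.0886 without Pc 2). flrt3.l, at 152 and 91.1 CPM in Pc, was not called against NC (0.17, adjusted p = 0.928). With 2 placode libraries, the spread was shared with the other regions. Without Pc 2, 2 members were called, and without Pc 1, 3, while limma-voom called 15 and the fit with no count minimum 5.

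Whole embryos gave the time course. Over the 8 stages 50 of 67 members differed, with 77.1% of all loci called. From St. 11-11.5 to St. 13, 24 were higher and 21 lower, with 63.1% of all loci called, 33.5% higher and 29.6% lower. From St. 13 to St. 18-19, 2 were higher and 10 lower, with 16.9% called, 8.27% higher and 8.6% lower. fgfrl1.l rose first, from 4.19 and 3.43 CPM at St. 11-11.5 through 23.6 and 11.4 CPM at St. 12 to 45.1 and 37.2 CPM at St. 13, and was 49.5 and 64.3 CPM at St. 18-19. The rise to St. 13 was 3.34 ± 0.32 (adjusted p = 2.21e-06). fgf2.l, which encodes a ligand without a signal peptide, rose from 0 and 0.177 CPM, on 3 counts in all, to 4.97 and 4.30 CPM, by 5.46 ± 0.71 (adjusted p = 2.22e-05). frs3.s rose by 3.75 ± 0.36 and frs2.l fell by 0.82 ± 0.10 over the same stages (adjusted p of 1.96e-06 and 1.86e-05), in the same directions as in the dissected regions.

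The 2 copies of fgfr4, and those of dusp6, changed in opposite directions between St. 11-11.5 and St. 13. fgfr4.l was 161 and 156 CPM at St. 11-11.5 and 203 and 229 CPM at St. 13, higher by 0.35 ± 0.12 (adjusted p = 0.0245, up to 0.163 without either St. 11-11.5 library or St. 13 library 2), whereas fgfr4.s was 226 and 195 CPM and then 128 and 106 CPM, lower by -0.94 ± 0.13 (adjusted p = 5.1e-05). The libraries of the 2 stages did not overlap for either copy. dusp6.l rose by 1.01 ± 0.17 and dusp6.s fell by 0.78 ± 0.18 (adjusted p of 0.000251 and 0.00192). After St. 13 both fgfr4 copies fell, to 105 and 117 CPM for fgfr4.l and 68.4 and 69.02 CPM for fgfr4.s, by 1.003 ± 0.13 and 0.81 ± 0.13 (adjusted p of 0.000471 and 0.00199), and fgf8.l fell by 0.85 ± 0.15 (adjusted p = 0.0028), from 30.6 and 31.2 CPM to 17.6 and 17.7 CPM.

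**Figure D4:**
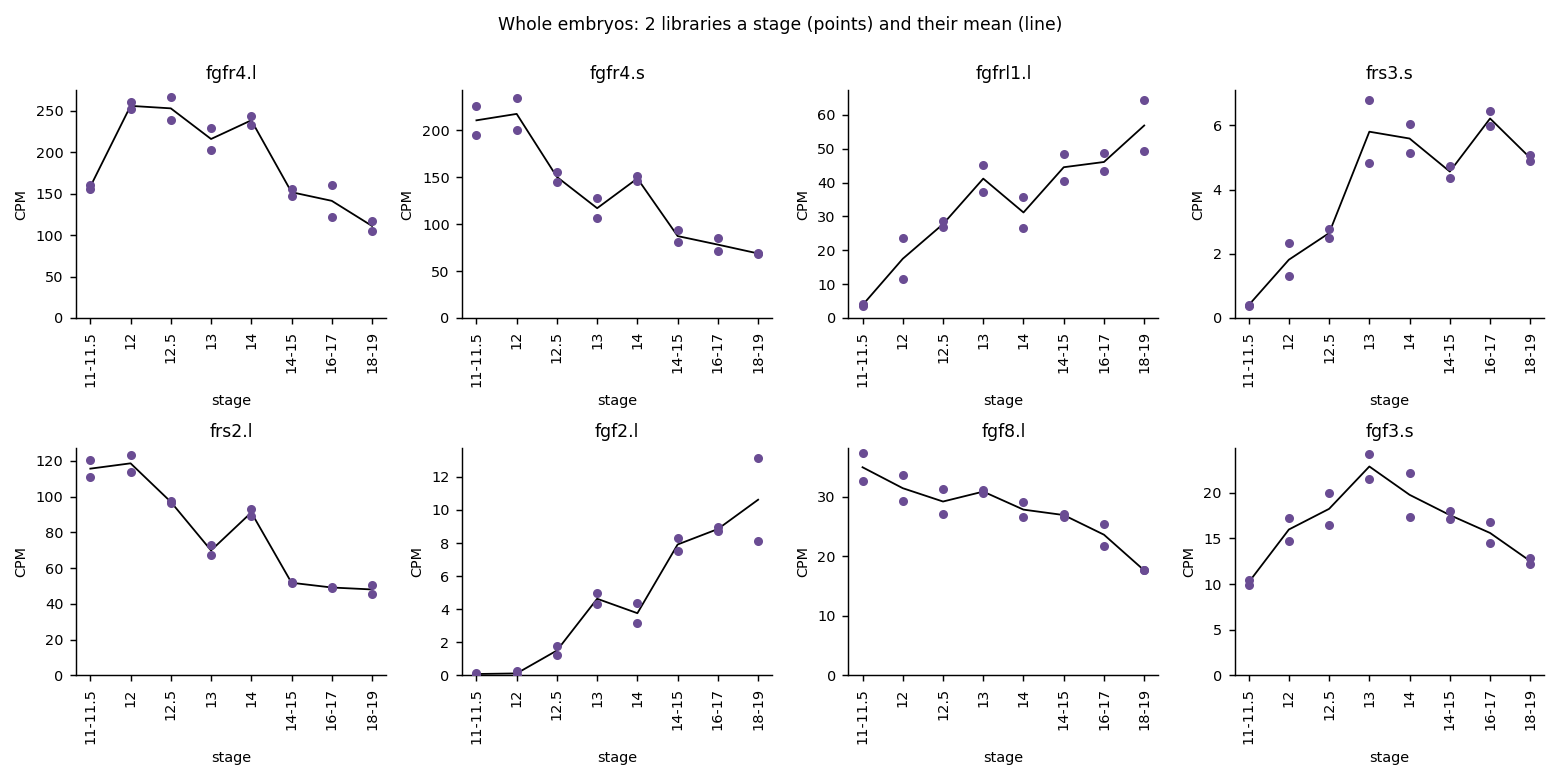
Level in CPM of fgfr4.l, fgfr4.s, fgfrl1.l, frs3.s, frs2.l, fgf2.l, fgf8.l and fgf3.s in whole embryos at 8 stages. Points are the 2 libraries of each stage and lines join their means. fgfrl1.l, frs3.s and fgf2.l rise from St. 11-11.5 to St. 13, and fgfr4.s and frs2.l fall.

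X. laevis carries an L and an S copy of many genes. For 25 members both copies were members, and the copy by region test asked whether the share of L in L plus S counts differed among the 7 regions of a stage. Only pairs mapped to one place were counted, so reads from stretches identical in both copies are missing and a share other than 50% is not a difference in level. The share differed for 11 of 22 pairs at St. 12.5, with 36% of all pairs called, and for 12 of 22 at St. 14, with 37.2% called. dusp5 stood out in the preplacodal region. Its L share was 38.2% ± 3.34 (SD, n = 3) in St. 12.5 ANB/PPE and 64.6% to 89.2% as the mean of the other regions (adjusted p = 7.64e-06). At St. 14 it was 32.96% ± 6.04 (SD, n = 5) in ANF/PPE and 84.8% to 94.8% elsewhere (adjusted p = 9.42e-08). fgfr4 had L shares that increased from the plate to the nonneural ectoderm at St. 12.5, with means of 41.8% (NPa) and 43.1% (NPp) in the plate, 54.6% in the preplacodal ANB/PPE, 56.7%, 56.9% and 70.6% in the anterior, posterior and lateral border, and 71.8% in NNE (adjusted p = 7.2e-07). NPa and NPp differed by less than the SD of the NPp libraries (6.52%). At St. 14 the means spanned 53.96% to 65.3% (adjusted p = 0.0201). dusp1 had an L share of 53.995% in NBp and 93.1% in NNE at St. 12.5 (adjusted p = 1.38e-06), and spry4 one of 5.65% in NPa, on 106 counts of both copies, and 79.2% in NNE, on 66 counts (adjusted p = 5.27e-05). All of these calls held in every fit that left out 1 library.

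**Figure D5:**
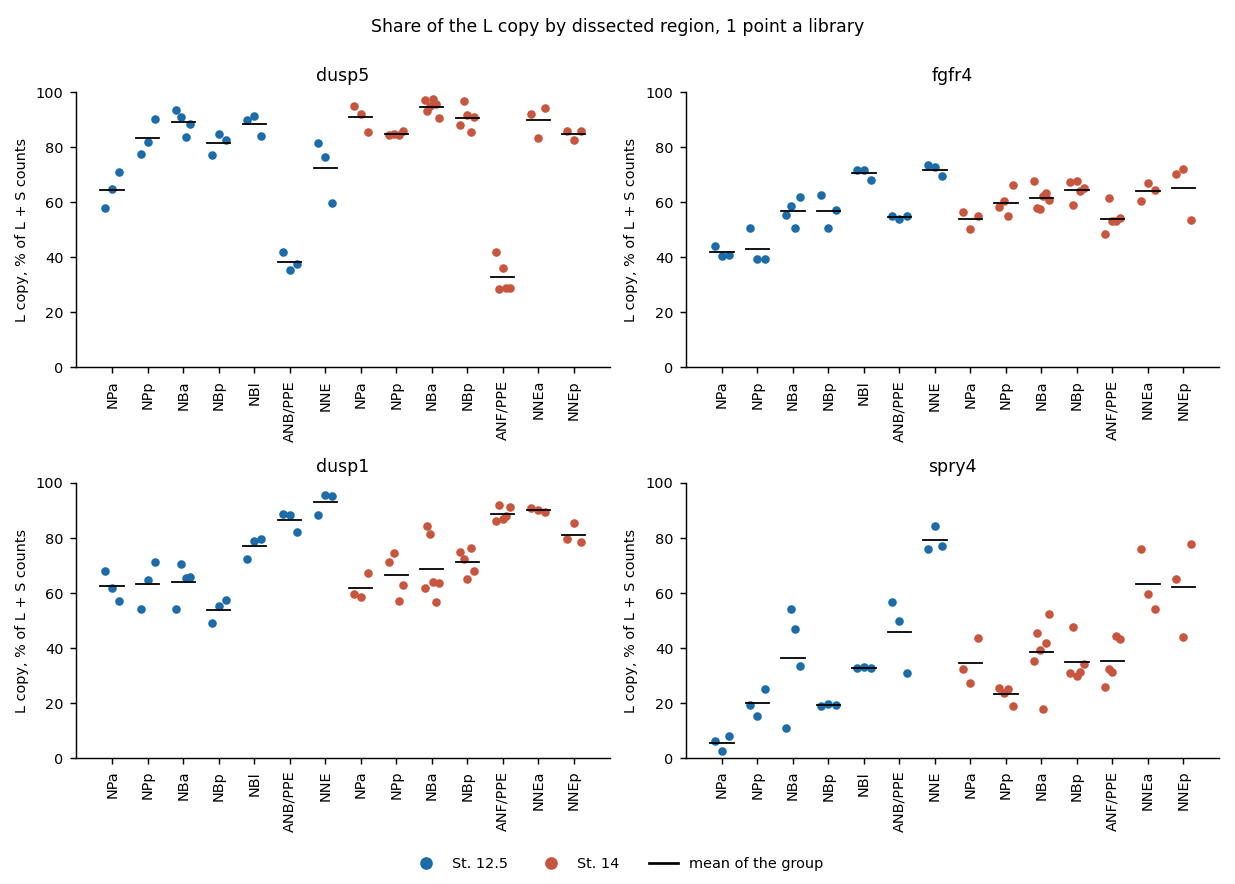
Share of L counts among L plus S counts, in percent, of dusp5, fgfr4, dusp1 and spry4 in each library, by region and stage. Points are libraries. The preplacodal libraries have the lowest dusp5 shares, and fgfr4 shares run from the plate up to the nonneural ectoderm at St. 12.5.

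Likeness to fgf8.l was measured across the means of the 14 divided regions of St. 12.5 and St. 14, by the correlation of log2 levels. By Pearson's r the most alike members were fgf8.s (Pearson's r 0.882, Spearman's rho 0.899), fgf16.l (0.830, 0.859), spry1.l (0.686, 0.741), spry2.l (0.683, 0.727) and fgf20.l (0.673, 0.733). By rho, fgf4.l (r 0.624, rho 0.877) came after fgf8.s and before the others. fgf4.l had no counts in St. 12.5 NPa, NBa, ANB/PPE and NNE and was below the count minimum at St. 14. fgf20.l had at most 4 counts in each of these St. 12.5 regions, so both values rest largely on regions near the floor. These are descriptions over 14 region means that share libraries and embryos.

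Genes further along the pathway were counted from lists. Of 18 tested loci of the ERK cascade, from adaptors and Ras to ERK, none was called in NPp against NPa or NBp against NBa at either stage, where 1.61% to 3.72% of all loci were. In the plate against NNE 5 were called at St. 12.5 and 7 at St. 14, with 39.7% and 46.5% of all loci called. Of the cofactor and matrix loci (syndecans, glypicans and heparan sulfate enzymes among them), 1 of 19, sulf1.l, was called in the St. 12.5 plate and none in the other 3 anteroposterior comparisons. Of 10 early-response loci, 1, phlda1.l, was called in the St. 12.5 plate and none in the other 3. Between the stages, where 68.6% of all loci were called, 37.5% higher and 31.1% lower, 9 of the 10 early-response loci differed, 2 higher and 7 lower at St. 14, with a median of -3.07 on the log2 scale. Of the 18 ERK cascade loci 16 differed between the stages, 9 higher and 7 lower. In whole embryos, 2 early-response loci were higher and 1 lower at St. 13 against St. 11-11.5 (median -0.539, 63.1% of all loci called). None was called at St. 18-19 against St. 13 (median 0.209, 16.9% of all loci called). In the St. 14 border against the plate, 6 of the 10 were higher and 1 lower (median 1.60, 21.6% of all loci called). What lies behind these differences was not tested.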

How the data were processed

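Single dissected ectoderm pieces and whole embryos were sequenced as stranded poly(A) RNA libraries. The counts deposited by the authors are whole numbers of read pairs per locus, made by aligning with TopHat2 2.0.14 to the X. laevis genome build 9.1, leaving out pairs that mapped to several places, and counting with HTSeq on an annotation merged with Cufflinks models, with no normalization. The 5 HTSeq summary entries, 15.7% to 25.5% of a library, name no gene and were left out. Near-identical copies lose shared reads under this counting, so L and S values are uncertain to that extent.

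A locus was tested where 2 libraries of a fit or more held over 10 counts, with edgeR 4.0.16 (R 4.3.3; TMM scaling, robust quasi-likelihood F test, Benjamini-Hochberg adjustment over all loci, threshold 0.05), in separate fits of the 22 St. 12.5 libraries, the 29 St. 14 libraries of divided regions, the 57 dissected libraries of all stages without the undivided pieces, and the 16 embryo libraries. Plate is the mean of NPa and NPp, border that of NBa and NBp, and NNE at St. 14 that of NNEa and NNEp. Standard errors are the log2 difference, fitted without edgeR's prior count, over the square root of F. The L and S copies were tested as a copy by region interaction with the library as a block. Each dissected library is a separate piece, but 4 St. 14 groups (ANF/PPE, NNEp, NBa, NPa) hold 2 pieces of one embryo, and pieces of different regions can share an embryo. The pairing comes from the embryo number in the labels: residuals of libraries of the same embryo correlated with a median r of 0.241 at St. 12.5 (63 pairs) and 0.143 at St. 14 (51 pairs), against -0.112 and -0.022 for different embryos. In the blocked fit a library with no embryo number has a block of its own and adds nothing to a difference. The block was used in the separate St. 12.5 and St. 14 fits only, so the fit of all stages took pieces of one embryo as independent. As alternatives, RLE scaling, DESeq2 1.42.0, limma-voom (limma 3.58.1), a minimum of 20 counts, no minimum, the label prefix (B100 in 9 libraries, B108 in 70, meaning not given in the sources used here) as a covariate, the embryo block, summed pieces of one embryo and region, each library left out, and, added after seeing the data, no posterior libraries highest in mesoderm markers were tried. Where a library was left out of the 57-library fit, the trend of the spread (edgeR's trended dispersion) was kept from the full fit. Only the quasi-likelihood spread was estimated anew there, whereas the other fits estimated both anew. Figures were drawn with matplotlib 3.10.9 (Python 3.11.15). The scripts' tests were tested on simulated data. Members and gene lists were chosen with earlier results of these data known. Named members are the main ligands, receptors, adaptors and inhibitors, up to 10 called members per comparison with the largest difference and 5 CPM or more as the mean of the higher group, and the 5 members most like fgf8.l.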

Additional observations from a re-analysis of the deposited data

Results flagged for a closer look

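Dixon's test was applied to 161 combinations of a member and a group, over 23 named members and the dissected groups of 4 to 6 libraries. In 17 combinations a library lay apart from the rest of its group. For independent, normally distributed values chance gives about 1 in 20 combinations. The levels tested were CPM without logs, and some groups hold pieces that share an embryo, so that rate may not hold here. The same library can lie apart for several members. For 5 of the 17, all of fgf20.l, the other libraries of the group were at 0, so that any read in 1 library sets it apart, and 12 remain beside them. Among ligands, fgf3.s was 1.65 CPM in St. 14 ANF/PPE 1 and at most 0.107 CPM in the other 4 libraries. fgf16.l was 29.2 CPM in St. 14 NPp 4 and 5.31 to 7.98 CPM in the others. fgf20.l was listed above 0 in a single library of its group in St. 12.5 NBa 4 (0.0941 CPM), St. 14 ANF/PPE 3 (0.0827 CPM), NB 2 (0.419 CPM), NBa 6 (0.0817 CPM) and NPp 4 (5.12 CPM), with the other libraries of those groups at 0. The values in NBa 4, ANF/PPE 3 and NBa 6 are 1 count each. St. 14 NPp 4 is also the NPp library highest in mesoderm markers (199 CPM), and the part of those markers in its values was not tested.

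Among inhibitors, spry4.s was 8.2 CPM in St. 14 NBa 4 (others 2.13 to 3.61 CPM) and 55.6 CPM in NPp 4 (others 34.5 to 36.2 CPM). dusp5.l was 205.0 CPM in St. 12.5 NBa 1 (others 28.7 to 46.2 CPM) and 49.9 CPM in St. 17 NC 3 (others 27.3 to 29.3 CPM). Among receptors and FLRT loci, fgfr1.l was 212.0 CPM in St. 14 NPp 3 (others 134 to 147 CPM) and 58.8 CPM in St. 17 NC 2 (others 77.03 to 79.9 CPM), fgfr2.l was 85.5 CPM in St. 14 ANF/PPE 2 (others 17.3 to 34.6 CPM), and fgfr4.l was 224.0 CPM in St. 14 NBa 3 (others 353 to 429 CPM). flrt3.l was 49.2 CPM in St. 14 NBp 2 (others 3.36 to 10.2 CPM), and flrt3.s was 22.9 CPM in St. 12.5 NBa 1 (others 4.03 to 5.84 CPM).

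The undivided St. 14 NP libraries entered no comparison. Of the 23 named members looked at, 3 were higher in both NP libraries than in every NPa and NPp library. fgf3.s was 88.8 and 119.8 CPM, against at most 60.5 CPM in the divided plate. dusp5.l was 241.0 and 246 CPM, against at most 109 CPM. dusp1.s was 69.1 and 82.4 CPM, against at most 59.5 CPM. Mesoderm markers summed to 255 to 2474 CPM in these NP libraries, and their part in the levels was not tested. Both NP libraries also have the label prefix B100, whereas every St. 14 NPa and NPp library has B108. The prefix and the undivided cut therefore cannot be told apart here.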

How the results depend on the processing

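No member changed sign in a called comparison under any alternative. Apart from fits that left out 1 library, 153 counts of called members stayed within 1.5 times the main count and 15 did not. At St. 12.5, border against plate (2 called) gave 1 under limma-voom, 1 with the prefix and 1 without the libraries highest in mesoderm markers, and ANB/PPE against NNE (4) gave 8 with the embryo as a replicate block and 7 with the prefix. At St. 14, NPp against NPa (14) gave 4 with the replicate block, 7 with summed pieces and 7 without the libraries highest in mesoderm markers, NBp against NBa (9) gave 0 with the block, 2 under limma-voom and 5 with the prefix, and border against plate (14) gave 9 with no count minimum. The change of the NPp to NPa difference (0) gave 2 under DESeq2, and NC against Pc (8) gave 15 under limma-voom and 5 with no count minimum. Over fits that left out 1 library, the counts ranged from 8 to 19 for St. 12.5 NPp against NPa (8 without NPa 2), 0 to 3 for border against plate, 0 to 8 for ANB/PPE against NNE, 5 to 15 for St. 14 NPp against NPa, 5 to 13 for NBp against NBa (5 without NBp 3), 9 to 16 for border against plate, 5 to 14 for ANF/PPE against NNEa (5 without NNEa 1 or 3), 14 to 26 for ANF/PPE against ANB/PPE, 0 to 1 for the change, 9 to 17 for NC against NBa (9 without NBa 5, NC 1 or NC 4), 6 to 17 for Pc against ANF/PPE (6 without Pc 1), 2 to 11 for NC against Pc and 5 to 14 for embryos of St. 18-19 against St. 13 (5 without St. 18-19 library 2). Of single called members, 3047 values kept their side of the threshold and 218 lost it under the other alternatives. The cause of these shifts was not tested, and the counts of members are given without the share of all loci called. The share of all called loci that were higher moved from 46.8% to 61.8% for St. 14 NPp against NPa under limma-voom (35.96% summed), from 85.1% to 73.6% for NBp against NBa under DESeq2, from 55.3% to 42.9% for border against plate under limma-voom (45.1% summed), from 28.7% to 39.8% for NC against Pc at a minimum of 20 counts, and from 21.95% to 37.7% for the change under limma-voom (37.8% without the mesoderm-high libraries). At a minimum of 20 counts the median of all loci in Pc against ANF/PPE was -0.129 against 0. Levels under 1 CPM rest on few counts and limit the low ligands most.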

Other observations

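Within the St. 14 nonneural ectoderm, which the comparisons above average, the anterior and posterior ranges of spry1.s and fgfr4.s lay apart, a pair chosen after their values were seen. spry1.s was 0.379, 0.818 and 0.591 CPM in NNEa and 7.18, 16.2 and 6.74 CPM in NNEp, without overlap, while fgfr4.s was 221, 273 and 323 CPM in NNEa and 46.6, 12.42 and 34.9 CPM in NNEp. No test of this difference was run.

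In whole embryos flrt1.s was 12.1, 4.66, 1.90 and 0.746 CPM in replicate 1 of St. 11-11.5, St. 12, St. 12.5 and St. 13 and 0 CPM in replicate 2 of each of these stages. The whole-embryo fit had no term for the replicate number, and what sets these libraries apart was not tested.

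The libraries St. 14 NPa 1 and NPa 2 came from the same embryo and the same region name, and flrt3.s was 5.79 CPM in one and 110.02 CPM in the other.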
